A study of Homo sapiens with 8 samples.

Results

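The epithelial sodium channel, its regulators SGK1, NEDD4L and PRSS8, the sodium pump subunit ATP1B1 and the chloride channel CFTR were followed as 9 genes of the 19158 listed in each library. The genes were matched by symbol. They were chosen by their role in sodium and fluid transport, with the difference between dexamethasone and untreated cells in these same libraries already known. The members' differences are therefore given as a description, with no test.

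The RNA came from A549, an established human lung adenocarcinoma line of epithelial cells, labelled wild type and batch 1. All cells were grown in DMEM with glutamax and fetal bovine serum. The 4 untreated libraries (numbered 1, 3, 4 and 5) received no treatment, and the 4 treated libraries (the same numbers) received 1 µM dexamethasone, a synthetic glucocorticoid, for 48 h. The libraries of a group were labelled as separate wells, so the SDs and p-values measure the spread between wells of 1 cell line.

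The epithelial sodium channel (ENaC) lets sodium enter through the apical membrane of absorptive epithelia, and the sodium pump on the opposite side moves it out of the cell, so that water follows. The channel is built from the α, β and γ subunits (SCNN1A, SCNN1B and SCNN1G). The ubiquitin ligase NEDD4-2 (NEDD4L) removes it from the surface, the kinase SGK1 restrains that ligase, and channel-activating proteases such as prostasin (PRSS8) cleave it. In the lung this transport clears liquid from the airspaces, while CFTR carries chloride. Glucocorticoids are known inducers of ENaC subunits and of SGK1 in lung epithelium.

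The values were treated as FPKM, fragments scaled to the length of the gene and the depth of the library. Depth estimated from the steps between low values was 24840000 to 28535000 fragments per library, and the fragment numbers given below rest on that estimate. The label check was clear: FKBP5, a glucocorticoid target, was at 3.28 to 7.30 FPKM in untreated and 87.3 to 166 FPKM in treated libraries. Both libraries numbered 5 stood apart from the others of their group, with 10555 genes at or above 1 FPKM in untreated 5, against 11290 to 11378 in the other untreated libraries, and 11008 in treated 5, against 11263 to 11319. Of the epithelial markers, KRT8 and KRT18 were abundant and EPCAM was below 1 FPKM in every library. CDH1 was at 4.90 to 8.52 FPKM untreated and 16.7 to 19.7 FPKM treated, while KRT19 was at 131.5 to 200.4 FPKM untreated and 43.97 to 64.17 FPKM treated. Alveolar type II markers summed to 0.565 to 0.684 FPKM untreated and 0.697 to 0.975 FPKM treated, with SFTPA1 at 0. The ionocyte markers FOXI1 and ASCL3, and the leukocyte markers PTPRC and CD3E, were at 0 in all 8 libraries, and CD68, the other leukocyte marker, was at 3.65 to 4.88 FPKM untreated and 1.81 to 2.24 FPKM treated. The 3 endothelial markers summed to at most 0.176 FPKM in any library. Fibroblast markers summed to 1.81 to 2.25 FPKM untreated and 0.274 to 0.461 FPKM treated, nearly all COL1A1. The part of these marker differences in the values below was not tested. All libraries came from the A549 line. In bulk RNA, fewer cells holding an RNA and less of it per cell cannot be told apart.

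The 3 channel subunits were scarce in untreated cells and abundant in treated cells. Of the 9 members, 7 had groups that did not overlap: 6 were higher in every treated library and SCNN1D was lower in every treated library. NEDD4L and CFTR overlapped. Of the 6 members that passed the filter on low values (at least 0.5 FPKM in at least 4 libraries), 5 had groups that did not overlap, beside 31.5% of all 12161 genes tested. That contrast was known when the genes were taken, so nothing is read from this count. SCNN1B and SCNN1G passed the filter only through the 4 treated libraries, so their groups could not have overlapped. SCNN1D, PRSS8 and CFTR did not pass the filter.

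**Figure D1:**
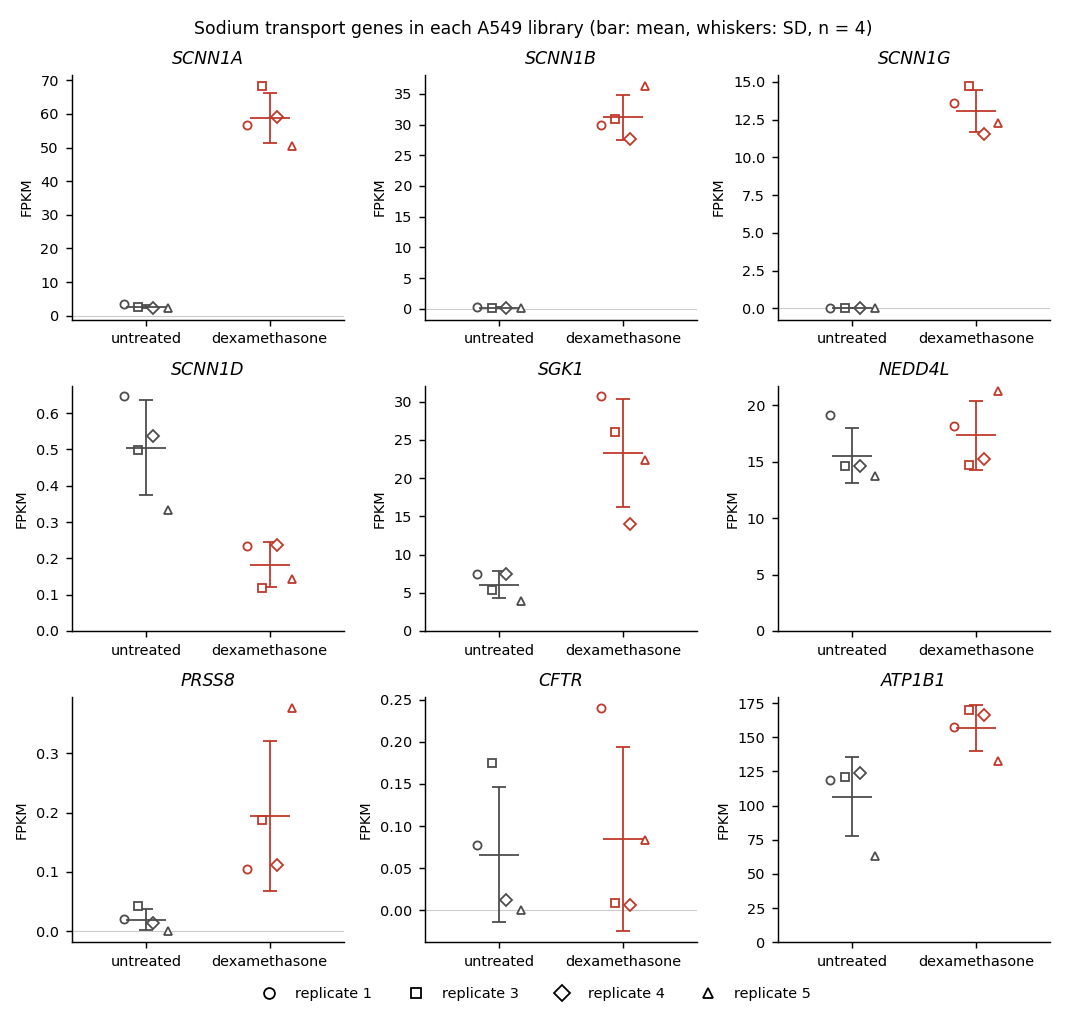
FPKM of each of the 9 members by library (points, 1 per well, shaped by library number; horizontal bars, group means; whiskers, SD, n = 4), with a separate linear vertical scale for each gene. The treated points of SCNN1A, SCNN1B, SCNN1G and SGK1 lie above all untreated points, whereas those of NEDD4L and CFTR overlap.

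SCNN1A (ENSG00000111319, chr12:6346843-6377730, GRCh38, minus strand) encodes the α subunit, which the other subunits need for a conducting channel. It was at 3.44, 2.62, 2.29 and 2.38 FPKM in untreated libraries 1, 3, 4 and 5. In treated libraries 1, 3, 4 and 5 it was at 56.8, 68.4, 59.2 and 50.6 FPKM. All treated libraries were far above all untreated ones, and the spread within each group was small beside the gap. The means were 2.68 ± 0.525 and 58.7 ± 7.39 FPKM (SD, n = 4), a ratio of 21.9. On the log2(FPKM + 1) scale used for all fits, the difference was 4.02 (SE 0.141), the 10th highest of 12161 genes. An exon of the neighbouring gene LTBR overlaps SCNN1A on the opposite strand, and the use of strand in counting was not given in the sources used here.

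SCNN1B (ENSG00000168447, chr16:23278231-23381299, plus strand) encodes the β subunit. Its untreated values were 0.316, 0.122, 0.116 and 0.101 FPKM in libraries 1, 3, 4 and 5, which at the estimated depth are about 20.5, 7.94, 7.88 and 6.39 fragments. Its treated values were 30.0, 30.9, 27.6 and 36.3 FPKM. The untreated level was thus near the lower limit of detection, with library 1 above the other 3, and all treated libraries lay within a narrow range. The means were 0.164 ± 0.102 and 31.2 ± 3.68 FPKM (SD, n = 4), and their ratio of 190 rests on few untreated fragments. The difference was 4.79 (SE 0.143) on the log2(FPKM + 1) scale, the 3rd highest of all genes tested.

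SCNN1G (ENSG00000166828, chr16:23182715-23216883, plus strand) encodes the γ subunit, a main site of proteolytic activation of the channel. It was listed at 0 in untreated libraries 1, 3 and 4 and at 0.0115 FPKM in untreated 5, which corresponds to about 0.997 fragment. The treated libraries held 13.6, 14.8, 11.6 and 12.3 FPKM, about 1069 to 1369 fragments each. The gene was therefore essentially undetected in one group and readily measured in every library of the other, and no fold is given. The treated mean was 13.1 ± 1.40 FPKM (SD, n = 4). The fitted difference of 3.80 (SE 0.112) depends on the pseudocount and became 6.99 with a pseudocount of 0.1. SCNN1G and SCNN1B lie on the same strand of chromosome 16, with 61348 bases between them, and 2 long noncoding RNAs on the opposite strand overlap exons of SCNN1G.

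The make-up of the subunit RNA differed between the groups. The summed α, β and γ level was 2.85 ± 0.622 FPKM untreated and 103 ± 7.39 FPKM treated (SD, n = 4). SCNN1A made up 94.4% ± 1.92 of that sum in untreated cells and 56.9% ± 4.29 in treated cells. SCNN1B made up 5.44% ± 2.01 and 30.4% ± 4.30, and SCNN1G reached 12.7% ± 0.750 in treated cells. Of these 3 subunits, all 4 untreated libraries thus held almost only α RNA, and all 4 treated libraries held them in the order α, β, γ. The δ subunit SCNN1D is not in this sum. Its ratio to SCNN1A was 0.188, 0.190, 0.235 and 0.140 in untreated libraries 1, 3, 4 and 5. The SCNN1A to SCNN1B ratio was 10.9, 21.4, 19.6 and 23.7 in untreated libraries 1, 3, 4 and 5. It was 1.89, 2.22, 2.14 and 1.39 in the treated ones. Treated library 5 had the lowest of these ratios, from the lowest SCNN1A and the highest SCNN1B value of its group. The SCNN1B to SCNN1G ratio was 2.21, 2.09, 2.39 and 2.95 in the treated libraries, highest in library 5.

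**Figure D2:**
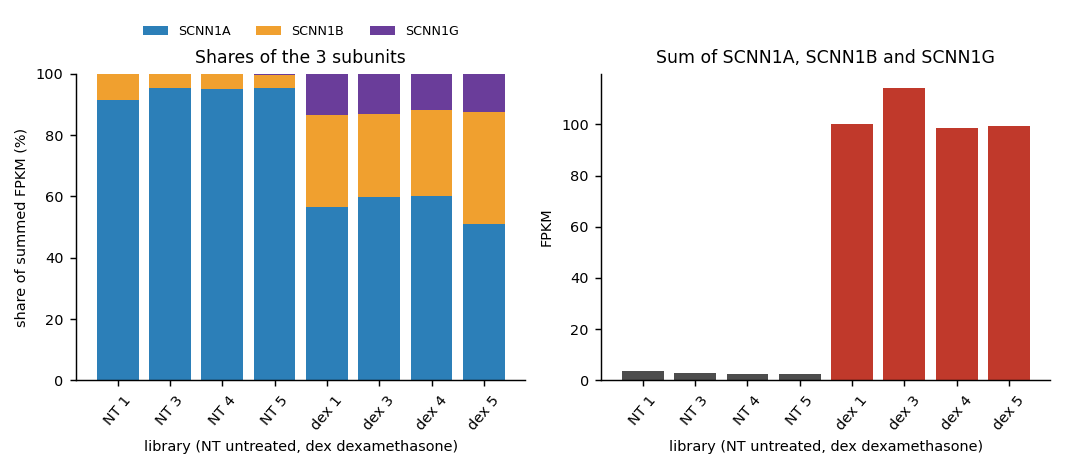
Left, the share of SCNN1A, SCNN1B and SCNN1G in their summed FPKM in percent, stacked for each of the 8 libraries (NT, untreated; dex, dexamethasone); right, the sum in FPKM. The sums lie at 2.40 to 3.76 FPKM in untreated and 98.4 to 114 FPKM in treated libraries, and the SCNN1A share is 94.4% on average untreated and 56.9% treated.

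SCNN1D (ENSG00000162572, chr1:1280436-1292029, plus strand) encodes the δ subunit, which can stand in for α. It was at 0.648, 0.497, 0.538 and 0.334 FPKM in untreated libraries 1, 3, 4 and 5. The treated libraries held 0.233, 0.118, 0.237 and 0.142 FPKM. It was the only one of the 9 members that was lower in every treated library, at a low level throughout. The means were 0.504 ± 0.130 and 0.183 ± 0.0614 FPKM (SD, n = 4). Without the filter, its difference was -0.34 (SE 0.054) on the log2(FPKM + 1) scale. The ratio of SCNN1A to SCNN1D was 5.49 ± 1.20 untreated and 357 ± 156 treated.

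Of the genes next to the channel genes, LTBR and UBE2J2 were called at the threshold used throughout, an adjusted p under 0.05. Of TNFRSF1A beside SCNN1A, COG7 beside SCNN1B, and USP31 beside SCNN1G, none was called, with adjusted p = 0.819, 0.690 and 0.0747 in limma. LTBR, which overlaps SCNN1A, rose from 52.5 to 79.7 FPKM, by 0.59 (SE 0.193) on the log2(FPKM + 1) scale, with adjusted p = 0.0499 in limma. UBE2J2, on one side of SCNN1D, fell by 0.49, with adjusted p = 0.0137 in limma, while ACAP3 on the other side was not called. Over all 9 members, 16 neighbours were no members themselves and 11 of those were tested, of which 3 rose, 1 fell and 7 were not called. Of all genes tested, 12.4% were called higher and 14.3% lower, and nothing is read from so small a count.

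SGK1 (ENSG00000118515, chr6:134169246-134318112, minus strand) encodes a kinase that acts on NEDD4L and keeps ENaC at the surface. It was at 7.46, 5.42, 7.49 and 3.89 FPKM in untreated libraries 1, 3, 4 and 5. The treated libraries held 30.7, 26.1, 13.9 and 22.3 FPKM. The groups did not overlap, and treated library 4 was the lowest of its group. The means were 6.07 ± 1.74 and 23.3 ± 7.10 FPKM (SD, n = 4), a ratio of 3.84, with a difference of 1.76 (SE 0.238) on the log2(FPKM + 1) scale. SGK1 stood 135th from the top among all genes tested, below the 3 channel subunits, which stood 10th, 3rd and 14th. With 1 library left out at a time, the difference lay between 1.63 and 1.99.

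RefSeq promoter sequences (GRCh38.p14) matched 5 of the 9 members, in 11 windows of 300 bases. SCNN1A, SCNN1G, SCNN1D and PRSS8 had none. The 250 bases before the start of SCNN1B and before 1 of the 3 SGK1 starts are shown, since these are the channel subunit and the kinase that were higher in all treated libraries and had an entry. Capitals mark matches on either strand to TATAAA or GGGCGG.
SCNN1B (chr16:23302052-23302301, GRCh38, plus strand): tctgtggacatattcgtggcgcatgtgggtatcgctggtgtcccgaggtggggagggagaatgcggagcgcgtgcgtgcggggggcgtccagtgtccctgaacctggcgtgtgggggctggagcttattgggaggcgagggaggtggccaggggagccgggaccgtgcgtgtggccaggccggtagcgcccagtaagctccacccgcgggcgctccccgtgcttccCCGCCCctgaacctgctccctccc
SGK1 (chr6:134174867-134175116, GRCh38, minus strand): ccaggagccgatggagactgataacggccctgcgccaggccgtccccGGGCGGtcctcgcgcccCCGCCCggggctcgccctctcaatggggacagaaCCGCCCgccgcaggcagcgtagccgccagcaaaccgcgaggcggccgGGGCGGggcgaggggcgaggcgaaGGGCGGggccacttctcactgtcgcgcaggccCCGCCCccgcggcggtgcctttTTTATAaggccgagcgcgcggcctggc
In 35116 windows of 300 bases over all promoters, TATAAA occurred in 11.5% and GGGCGG in 45.0%, counted on both strands. These windows are longer than the 250 bases shown. The core of the glucocorticoid receptor element was searched as AGAACA and as the spacing pattern ACANNNTGT, also on both strands; these occurred in 14.8% and 5.37% of the windows. Neither was found in the SCNN1B window or in the SGK1 window shown. AGAACA was present in the window of the SGK1 start at 134177861, both were present in the window of the NEDD4L start at 58047226, and ACANNNTGT in that of the NEDD4L start at 58149320.

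In the 2000 bases before each start, the 15-base element (AGAACA, 3 free bases, TGTTCT) was sought on both strands. With at most 1 of its 12 set letters different, none of the 5 members with a promoter sequence had it, and 0.854% of all promoters did. The limit was then raised to 2 letters, which 11.0% of all promoters met, and among those 5 members SGK1 and NEDD4L did. The shares of promoters count each start, whereas SGK1 and NEDD4L each had several of the 11 starts searched. The number of members is thus not comparable with those shares. The matches are shown with 10 bases on each side, with the set letters in capitals, since these are the closest to the element among the members searched.
SGK1, 1165 bases before the start at 134174866 (chr6:134176024-134176038, GRCh38, minus strand): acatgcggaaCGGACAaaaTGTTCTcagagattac
NEDD4L, 1868 bases before the start at 58149320 (chr18:58147445-58147459, GRCh38, plus strand): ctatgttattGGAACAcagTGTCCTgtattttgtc
NEDD4L, 182 bases before the same start (chr18:58149131-58149145, GRCh38, plus strand): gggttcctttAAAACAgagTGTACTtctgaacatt
A match gives letters in a window and does not show binding. Of the pair with such a match, SGK1 had groups that did not overlap and NEDD4L had groups that did.

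NEDD4L (ENSG00000049759, chr18:58044367-58401540, plus strand) encodes the ligase NEDD4-2 that marks ENaC for removal. Its values were 19.1, 14.7, 14.6 and 13.8 FPKM in untreated libraries 1, 3, 4 and 5 and 18.2, 14.7, 15.2 and 21.3 FPKM in the treated ones. The groups overlapped over most of their range. The means were 15.6 ± 2.42 and 17.4 ± 3.06 FPKM (SD, n = 4), a ratio of 1.12. The difference was 0.14 (SE 0.174) on the log2(FPKM + 1) scale, within the spread between wells, and 0.01 without treated library 5. The ratio of SGK1 to NEDD4L was 0.390, 0.370, 0.512 and 0.283 untreated and 1.69, 1.78, 0.915 and 1.05 treated, so the treated libraries held relatively more SGK1 RNA throughout.

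PRSS8 (ENSG00000052344, chr16:31131433-31135762, minus strand) encodes prostasin, a membrane-anchored protease. It was at 0.0211, 0.0425, 0.0131 and 0 FPKM untreated and at 0.105, 0.188, 0.111 and 0.376 FPKM treated, in the order of libraries 1, 3, 4 and 5. These levels correspond to 0 to 1.98 fragments in untreated and 4.85 to 19.7 fragments in treated libraries. The groups did not overlap, but at this depth each untreated value rests on a few fragments at most. A long noncoding RNA on the opposite strand overlaps exons of PRSS8. CFTR (ENSG00000001626, chr7:117465784-117715971, plus strand), the chloride channel lost in cystic fibrosis, was nearly undetected, at 0.0777, 0.175, 0.0123 and 0 FPKM untreated. In the treated libraries it was at 0.240, 0.00924, 0.00618 and 0.0840 FPKM. The CFTR groups overlapped, and no difference was detectable at this depth.

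ATP1B1 (ENSG00000143153, chr1:169105697-169132722, plus strand) encodes the β1 subunit that carries the sodium pump to the membrane. It was at 118.8, 120.6, 123.6 and 63.1 FPKM in untreated libraries 1, 3, 4 and 5. The treated libraries held 157.6, 170.1, 166.5 and 132.5 FPKM. ATP1B1 was the most abundant member in every library, and both libraries numbered 5 held the lowest value of their group. The means were 106.5 ± 29.0 and 156.7 ± 17.0 FPKM (SD, n = 4), a ratio of 1.47. The difference was 0.59 (SE 0.163) on the log2(FPKM + 1) scale, 0.49 without both libraries numbered 5 and 0.38 with the trend on GC content removed. Exons of NME7 on the opposite strand and of a long noncoding RNA on the same strand overlap ATP1B1.

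Of the 4 genes for β subunits of the sodium pump, ATP1B1 made up 75.8% ± 6.07 of the summed RNA untreated and 83.7% ± 2.13 treated (SD, n = 4).

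**Figure D3:**
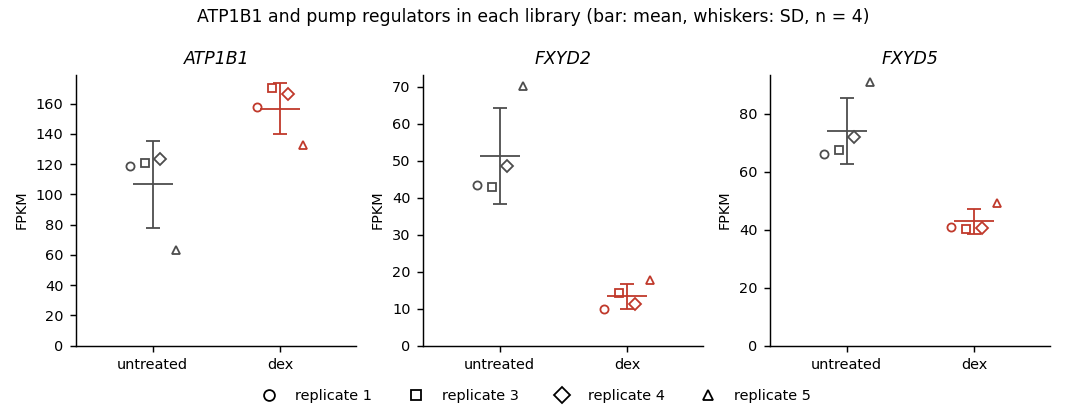
FPKM of ATP1B1 and of the pump regulators FXYD2 and FXYD5 by library (points, 1 per well, shaped by library number; bars, group means; whiskers, SD, n = 4). ATP1B1 lies higher in every treated library, FXYD2 at 42.9 to 70.3 FPKM in untreated and 9.98 to 17.7 FPKM in treated libraries, and FXYD5 is lower in every treated library.

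By level, the members fell in the order ATP1B1, NEDD4L, SGK1, SCNN1A, SCNN1D and SCNN1B in untreated cells, each separated from the next by ranges that did not overlap, followed by CFTR, PRSS8 and SCNN1G. From SCNN1B on, each neighbouring pair overlapped. In treated cells the order began with ATP1B1, SCNN1A and SCNN1B, again without overlap between ATP1B1 and SCNN1A or between SCNN1A and SCNN1B. SCNN1B, SGK1, NEDD4L and SCNN1G came next, and each neighbouring pair of these overlapped. PRSS8, SCNN1D and CFTR stood last and overlapped. Among all 19158 genes, SCNN1A went from percentiles 47.8 to 55.0 in untreated libraries to percentiles 94.0 to 96.0 in treated libraries. SCNN1B went from 30.4 to 34.8 up to 88.7 to 91.6. SGK1 lay at 59.4 to 67.0 untreated and 78.2 to 90.2 treated.

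The genes most like each member were taken by the smallest root mean square difference between centred log2(FPKM + 1) profiles over the 8 libraries. For SCNN1A these were SCNN1G (0.187), C3 (0.188), a complement component, and TSC22D3 (0.199), the glucocorticoid-induced leucine zipper GILZ. For SCNN1B they were SAA1 (0.172), an acute phase protein, MAOA (0.180), monoamine oxidase A, and CDH16 (0.193), a cadherin. For SCNN1G they were GPR1 (0.0701), TFCP2L1 (0.138), a transcription factor, and SGPP2 (0.165), a sphingosine phosphate phosphatase. For SGK1 they were MMP28 (0.149), a metalloproteinase, EPS8 (0.227), an actin regulator, and FOXO1 (0.267), a transcription factor and kinase target. The 8 libraries share 1 contrast, so likeness here mostly states a like difference between the groups. That difference depends on the pseudocount for genes near 0 FPKM. With a pseudocount of 0.1 it was 4.41 for SCNN1A, 6.95 for SCNN1B and 6.99 for SCNN1G. Likeness and the ranks of differences were computed only with a pseudocount of 1.

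The other genes of the pathway were counted from lists of 83 genes, of which 82 were in the libraries and 53 were tested. Of these 53, 7 rose and 13 fell, or 37.7%, beside 26.7% of all genes tested called, 12.4% higher and 14.3% lower. The median difference over the lists was -0.11 and that of all genes tested 0.012, both on the log2(FPKM + 1) scale. The lists were drawn up with earlier results of these libraries known, so the counts are a description. The 20 calls became 13 without treated library 1 or treated library 4.

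Of 9 proteases that cleave ENaC and their inhibitors, 4 were tested, 0 rose, 3 fell and 1 was not called, with a median difference of -0.81. PLAU, urokinase, went from 70.4 to 28.4 FPKM and fell by 1.29 (SE 0.127) on the log2(FPKM + 1) scale, with adjusted p = 7.47e-05 in limma. SERPINE2, an inhibitor of serine proteases, fell from 61.5 to 29.9 FPKM (adjusted p = 0.00124). SPINT2, an inhibitor of channel-activating proteases, fell from 135 to 88.8 FPKM (adjusted p = 0.0222 in limma), but it was not called without treated library 1, 3 or 4, at adjusted p = 0.0726, 0.0577 and 0.0637. FURIN, which cleaves the channel in the secretory pathway, was at 20.2 and 21.1 FPKM and was not called (adjusted p = 0.815). With the trend on GC content removed, FURIN was called higher, with a difference of 0.31, and the list held 4 calls. The genes of this list that fell thus were a protease and 2 inhibitors of proteases.

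Of 28 kinases, ligases and trafficking factors, 25 were tested, 7 rose, 1 fell and 17 were not called, with a median of 0.23. TSC22D3, whose product GILZ can restrain ubiquitylation of ENaC, rose from 6.12 to 103 FPKM, by 3.87 (SE 0.166), with adjusted p = 4.69e-07 in limma. STK39, the kinase SPAK of the WNK pathway, rose from 6.90 to 22.4 FPKM (adjusted p = 8.75e-05). NEDD4, the paralog of NEDD4L, rose from 9.75 to 29.2 FPKM (adjusted p = 0.00622). The ratio of NEDD4 to NEDD4L was 0.630 ± 0.335 untreated and 1.74 ± 0.592 treated (SD, n = 4). The groups overlapped in this ratio, with treated library 5 at 0.908 and untreated library 3 at 0.948. Named after their values were seen, the adaptors NDFIP1 and NDFIP2 and the ligase WWP1 also rose, with adjusted p = 0.00867, 0.0273 and 0.0365 in limma, as did OXSR1 (adjusted p = 0.0499), and SGK2 fell (adjusted p = 0.0333). The count of 8 calls fell to 4 without untreated library 1 or treated library 1, 3 or 4, with NDFIP2, WWP1, OXSR1 and SGK2 among those lost in each case. NDFIP1 was not called with the trend on GC content removed, where its difference was 0.18 in place of 0.50.

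The list of other pump genes and FXYD regulators held 10 genes in the libraries, of which 3 were tested, 0 rose, 2 fell and 1, ATP1B3, was not called, with a median of -0.77. FXYD2, the γ regulator of the pump, went from 51.3 to 13.3 FPKM and fell by 1.87 (SE 0.275), with adjusted p = 0.000909 in limma. Its exons are shared with the readthrough gene FXYD6-FXYD2, and antisense genes overlap exons of PLAU and FXYD2. FXYD5, dysadherin, went from 74.0 to 42.8 FPKM and fell by 0.77 (SE 0.204), with adjusted p = 0.0203 in limma. It was not called without treated library 1, 3 or 4, at adjusted p = 0.0606, 0.0541 and 0.0619, where the list has 1 call left. In both FXYD genes, library 5 was the highest of its group.

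Of the 5 acid-sensing channel genes related to ENaC, 2 were tested and 0 were called by limma, with 0 at an unadjusted p under 0.05. Of 30 other ion and water transport genes, 19 were tested, 0 rose, 7 fell and 12 were not called, with a median of -0.32. CA2, a carbonic anhydrase, fell from 1.31 to 0.264 FPKM (adjusted p = 0.000263 in limma), and AQP3, a water and glycerol channel, fell from 5.84 to 2.34 FPKM (adjusted p = 0.00184). The scaffold SLC9A3R1, which binds CFTR, fell from 24.6 to 8.47 FPKM (adjusted p = 0.00459). This list's 7 calls became 12 without untreated library 5 and 13 without both libraries numbered 5.

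**Figure D4:**
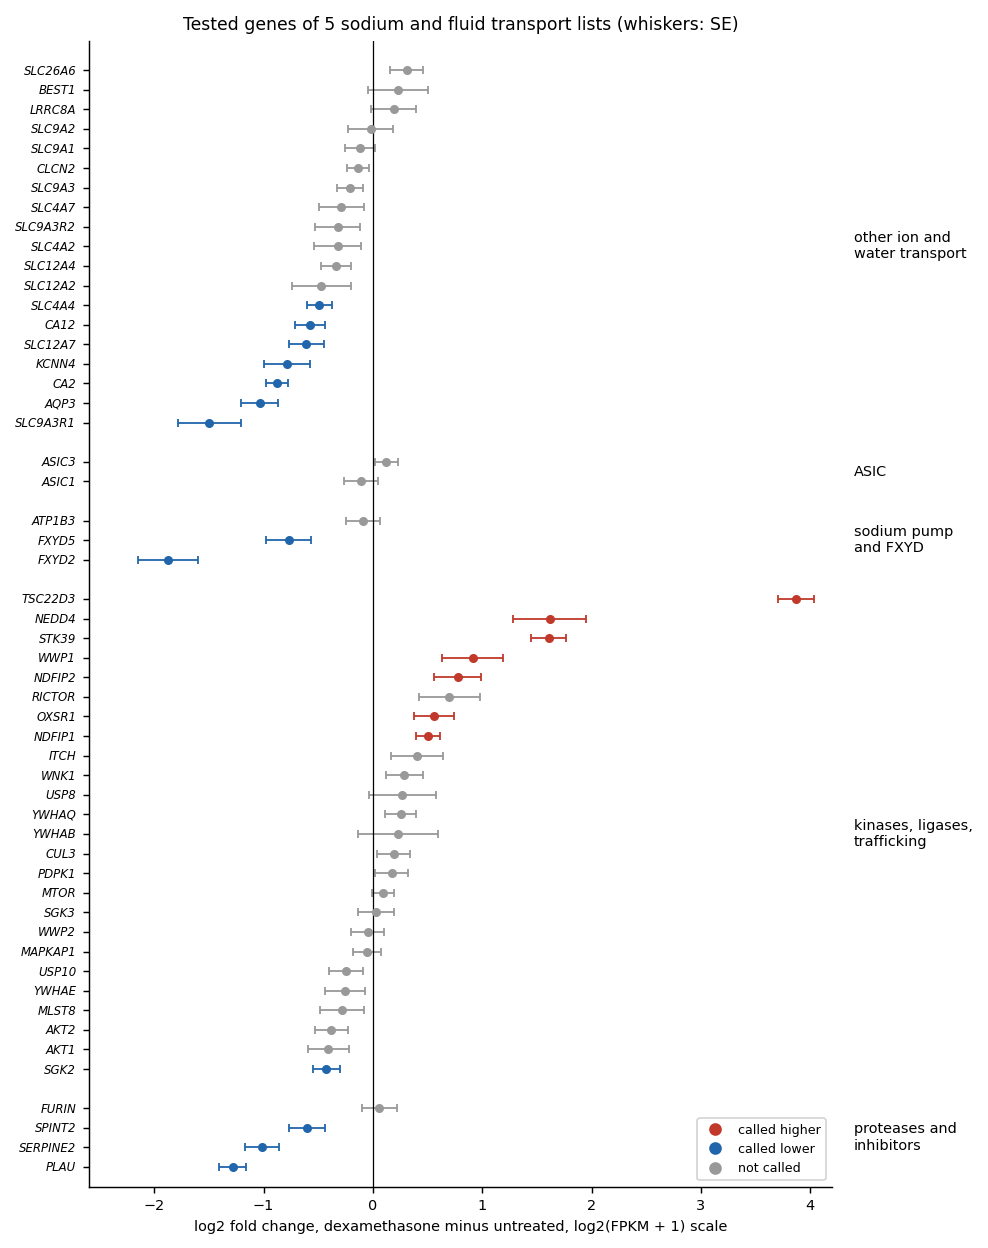
Difference between dexamethasone and untreated cells in log2(FPKM + 1) for every tested gene of the 5 pathway lists (points; whiskers, SE), ordered within each list and coloured red or blue where called higher or lower at an adjusted p under 0.05 in limma, grey otherwise. The kinase, ligase and trafficking list has 7 called genes above 0 and 1 below, and the protease list has 3 called genes below 0 and 0 above.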

How the data were processed

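RNA was sequenced from 8 wells of A549 cells, 4 untreated and 4 given dexamethasone. Per the submitters' processing notes, reads were checked with FastQC 0.11.9, trimmed with cutadapt 3.4, aligned to GRCh38 with STAR 2.7.9a and counted with featureCounts (Subread 2.0.3), and DESeq2 1.32.0 was used by the authors for their tests. The authors deposited 1 value per gene and library, described as counts although not whole. The deposited values were treated as FPKM, that is, as counts that the authors had divided by gene length and depth, because each library's sum of value times transcript length came to 804700000 to 914900000. Which step made the values, which annotation release was used and whether strand was used are not given in the sources used here. Besides the overlaps given above, other genes overlap exons of NEDD4L, CFTR, TSC22D3, NDFIP2, WWP1 and KCNQ1 on the opposite strand. For SPINT2, SLC9A3R1, SGK2, FXYD3, FXYD6, ANO1 and ASIC2, the overlapping genes include some on the same strand. In each library 41.5% to 47.0% of low values were within 0.1 of a whole number of fragments, too few to go back to counts, so a count test was not made.

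Libraries were scaled by a trimmed mean (trim 0.3 of ratios, 0.05 of levels), genes with at least 0.5 FPKM in at least 4 libraries were kept (12161), and limma 3.58.1 in R 4.3.3 (trend and robust) was fitted to log2(FPKM + 1) with group as the only term. Such a fold change understates the change of genes near or below 1 FPKM. P-values were adjusted by Benjamini-Hochberg over all genes tested and called under 0.05, which gave 3251 genes. The levels printed are the deposited ones, unscaled. The fit was tested on simulated data. The members and gene lists were chosen with earlier results of these data known. Named were the members, up to 3 called genes of each list with the smallest p, the 3 genes most like SCNN1A, SCNN1B, SCNN1G and SGK1, the neighbours of the ENaC subunits, and TSC22D3 and FKBP5 as label checks. Some genes are not reported here, and the lists were counted without them. Any others named were chosen after their values were seen. Alternatives were a pseudocount of 0.1, no filter, no scaling, quantile normalization, GC trend removal, a replicate block and leaving out libraries.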

Additional observations from a re-analysis of the deposited data

Results flagged for a closer look

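In 40 groups of 4 libraries examined (members and named list genes), 7 had 1 library set apart from the other 3. The mark was a wide gap for the range of the group. Chance gives about 1 in 20 for independent, normally distributed values. The groups share the same libraries and their distribution was not examined, so no excess is read from the count. SCNN1B was at 0.316 FPKM in untreated library 1 and at 0.101 to 0.122 FPKM in the others. SCNN1G was at 0.0115 FPKM in untreated library 5 and at 0 in the others, a difference of about 1 fragment. With the others at 0, any value above 0 would be set apart. NEDD4L was at 19.1 FPKM in untreated library 1 and at 13.8 to 14.7 FPKM in the others. ATP1B1 was at 63.1 FPKM in untreated library 5 and at 118.8 to 123.6 FPKM in the others. AQP3 was at 3.23 FPKM in treated library 5 and at 1.97 to 2.10 FPKM in the others. SLC9A3R1 was at 4.10 FPKM in treated library 1 and at 9.47 to 10.4 FPKM in the others. FXYD5 was at 49.4 FPKM in treated library 5 and at 40.3 to 41.1 FPKM in the others. Of the 7, 4 were in a library numbered 5, both of which stood apart in the number of genes detected, and the part of that in these values was not tested.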

How the results depend on the processing

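No called gene named by rule and none of the 6 tested members changed sign under the alternatives run. FURIN and ATP1B3, not called, did: FURIN went from 0.06 to -0.03 without untreated library 4 and -0.02 without treated library 5, and ATP1B3 from -0.09 to 0.02 without treated library 1. Of all genes tested, 3251 were called, and 5747 with a replicate block, 5514 with both libraries numbered 5 left out and 5303 with the GC trend removed together with a replicate block, the last chosen after seeing the data; leaving out 1 library at a time gave 2317 to 3846. The cause of these shifts was not tested. Without scaling, 38.5% of calls were higher, against 46.5%, and with the replicate block 50.9% were. The groups share library numbers, and whether the same number marks a pair is not known. Deviations of libraries with the same number correlated at 0.29, 0.066, 0.31 and 0.71 for numbers 1, 3, 4 and 5. Untreated 3 and 4 correlated best with treated library 1. With the replicate block the pathway lists held 30 called genes, against 20, and 31 with the GC trend removed as well; leaving out 1 library at a time gave 13 to 25. For members, SCNN1A, SCNN1B and SCNN1G differences were 4.41, 6.95 and 6.99 with a pseudocount of 0.1 and 4.24, 5.01 and 3.93 with the GC trend removed. The differences of SGK1, NEDD4L and ATP1B1 moved by less than the spread between wells. SCNN1D, PRSS8 and CFTR were fitted only without the filter on low values, so no other setting was compared for them. Of the genes named by rule in the lists, SPINT2 and FXYD5 lost their calls, each without treated library 1, 3 or 4, and no other did. Depth limits SCNN1G, PRSS8 and CFTR, where most untreated values rest on few fragments.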

Other observations

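Some list genes that did not pass the filter on low values had groups that did not overlap, and were chosen after their values were seen. Of all genes tested, 31.5% had such groups. The share among genes that did not pass the filter was not computed, so nothing is read from their number. FXYD3, a pump regulator, had a value of 0 in every untreated library. Its treated values were 0.623, 0.414, 0.322 and 0.357 FPKM in libraries 1, 3, 4 and 5. ANO1, a calcium-activated chloride channel, was at 1.78, 1.19, 1.05 and 0.386 FPKM in untreated libraries and at 0.137, 0.112, 0.0950 and 0.132 FPKM in treated ones. TMPRSS2, a serine protease that can cleave ENaC, had a value of 0 in every untreated library and of 0.0114 to 0.0652 FPKM in the treated ones. Those treated values lie near the lower limit of detection, and MX1 on the opposite strand overlaps exons of TMPRSS2. FXYD6, of the same family as FXYD3, went the other way, at 0.327 to 0.778 FPKM untreated and 0 to 0.0931 FPKM treated. KCNQ1 was higher in every treated library, and ASIC2 and ATP1B2 were lower in every treated library, all at low levels.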
